A study of Mus musculus with 21 samples.

Results

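The comparison described here set mouse CD4 T cells that had been activated with TGFB and had switched on a reporter of Foxp3 against activated reporter cells that received no TGFB. It used 10 of the 21 Affymetrix exon arrays of the series, 5 for each group, chosen by the sample titles. The cells were cultured from the spleens of Marilyn mice, which carry a transgenic T cell receptor specific for a male (HY) antigen presented to CD4 cells. In the reporter strain, written marilynfoxp3hCD2, human CD2 on the cell surface marks expression of Foxp3. The labels give the treated cells as CD4+hCD2+ with TGFB and the comparison cells as CD4+CD2 and untreated, without saying whether that CD2 is the mouse or the human protein. Replicates 1 to 3 of each group belong to study 1 and replicates 4 and 5 to study 2, and study was a term of the fit. Beside these stood 5 arrays of TGFB-treated reporter cells that were CD4+hCD2-, and 3 untreated and 3 TGFB-treated arrays of marilynfoxp3-/- cells, which lack Foxp3 and all belong to study 2. All groups share the transgenic receptor and the activation step. Samples are labelled as biological replicates, but no animal or culture is named for any of them, and the p-values below measure only their spread, which may in part be technical. The label of the treated group names the reporter as well as TGFB, and the label of the untreated group does not say how its cells were selected, so exposure to TGFB and selection for Foxp3-expressing cells cannot be told apart in this comparison alone.

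TGFB is a secreted cytokine that binds a pair of serine/threonine kinase receptors, which phosphorylate SMAD proteins that then enter the nucleus and regulate transcription. In newly activated CD4 T cells it restrains proliferation and effector differentiation, and together with interleukin-2 it can induce Foxp3, the lineage factor of regulatory T cells. Regulatory T cells hold other immune responses in check and are central to tolerance of self tissues and of grafts. Interleukin-2 acts through STAT5, and its high-affinity receptor chain CD25 is both a marker of regulatory cells and a product of activation.

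The labelled tissue and reporter were checked first. The probe set shared by Foxp3 and Flicr, a noncoding RNA of the same locus, read 6.33, 6.38, 5.95, 6.31 and 6.54 in untreated replicates 1 to 5 and 10.44, 10.34, 9.23, 11.64 and 11.68 in hCD2-positive replicates 1 to 5, in log2 units of normalised signal. Every hCD2-positive array lay far above every untreated array, and the difference was 4.36 ± 0.26 (SE) (limma, adjusted p = 1.65e-08). Cd4 read 10.64 ± 0.29 (SD, n = 5) in untreated and 10.27 ± 0.57 (SD, n = 5) in hCD2-positive cells and did not pass the test. Averaged over 14 measured T cell identity genes, the level ran from 10.05 to 10.47 over the untreated arrays and from 9.27 to 10.52 over the hCD2-positive arrays. Averaged over 12 B cell markers it ran from 5.11 to 5.51 and from 5.27 to 5.61, over 18 dendritic cell and macrophage markers from 5.44 to 5.77 and from 5.51 to 5.79, over 13 granulocyte and mast cell markers from 4.60 to 4.71 and from 4.61 to 4.93, and over 8 erythroid and platelet markers from 5.45 to 5.75 and from 5.49 to 5.87. The B cell, myeloid, granulocyte and erythroid means all lay below the medians of the same arrays, 6.05 to 6.48. The lower quartile of all probe sets on the reporter arrays was 4.98. The CD8 T cell markers Cd8a and Cd8b1 lay above those medians, averaging 7.535 to 8.285 over the untreated and 7.51 to 8.305 over the hCD2-positive arrays. Cd8b1 alone read 7.98 to 9.07 in the hCD2-positive arrays, and the part of these genes in other results was not tested. Of the B cell markers only Cd72 passed the test (higher by 0.90), and it did not without untreated replicate 4 (0.76, adjusted p = 0.058). No granulocyte or erythroid marker passed. The exceptions among the myeloid markers were Cybb and Itgam, which were higher, by 1.86 and 0.40, and H2-Ab1, an MHC class II gene, which read 7.92 ± 0.54 (SD, n = 5) in untreated cells and was lower by 1.42; their part in other results was not tested. In bulk RNA, fewer cells of a type and less RNA per cell cannot be told apart.

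One array stood apart in its range. The interquartile range of all probe sets was 2.01 in hCD2-positive replicate 3, against 2.70 to 2.82 in the other hCD2-positive arrays and 2.74 to 3.14 in the untreated arrays, so high and low genes lie closer together there. Counts are therefore also given without the reporter arrays whose range was under 2.5, this array and 3 hCD2-negative ones.

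Of 14860 genes tested, 1725 (11.6%) differed between hCD2-positive and untreated cells at an adjusted p under 0.05 (limma over 21 arrays, Benjamini-Hochberg adjustment). Of these, 289 (1.94%) were higher and 1436 (9.66%) were lower in the hCD2-positive cells. All 1725 had the same sign in study 1 and in study 2, but they were chosen by a fit to these same arrays, so this is no separate test. The test within study 1 alone called 279 genes and within study 2 alone 208. At least 2-fold changes were seen for 106 genes that rose and 639 that fell. The 5 arrays of one group all lay above the 5 of the other for 1090 genes (7.34%), of which 130 (0.875%) had all hCD2-positive arrays above and 960 (6.46%) all below. The number of genes called lower was similar under other scalings of the arrays, but the number called higher was not. Quantile normalisation gave 1090 higher and 1447 lower, so that the share of calls that were lower fell from 83.2% to 57.0%, and centring each array on its median gave 536 higher and 1347 lower (71.5% lower). The median difference over all genes was -0.07 as deposited and 0.07 after quantile normalisation, and list medians below are to be read against it. List counts below are to be read against the 1.94% of all genes called higher and the 9.66% called lower. Without the reporter arrays of narrow range, 475 genes were higher and 1110 lower. For 106 of the genes called lower the hCD2-positive mean, and for 44 of those called higher the untreated mean, lay under the lower quartile of 4.98, near the lower end of the scale.

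**Figure D1:**
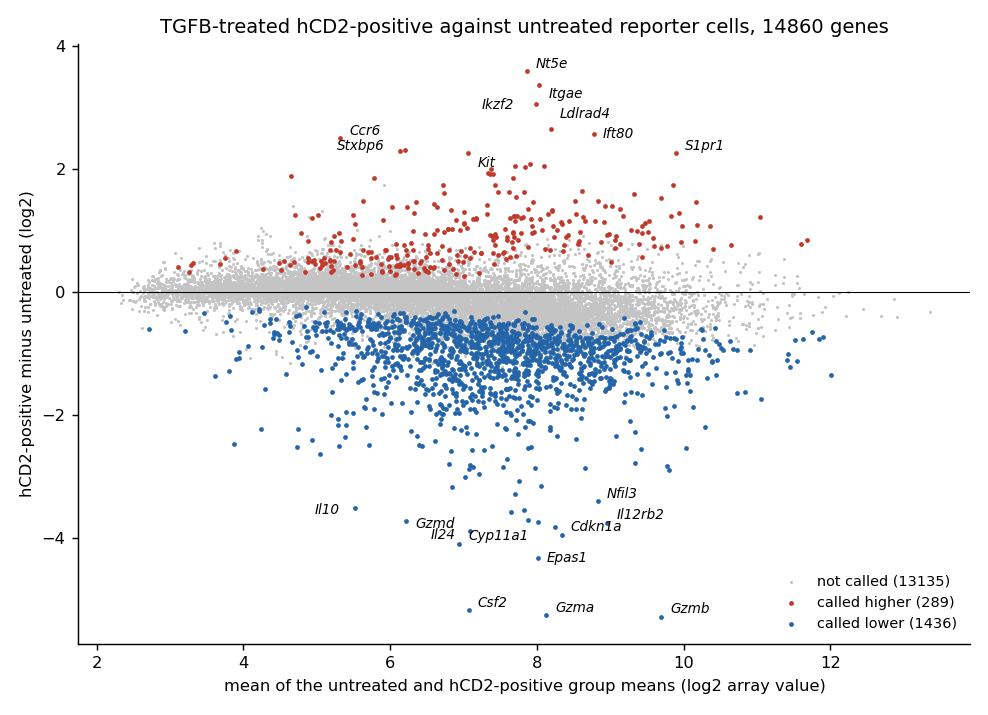
Difference between hCD2-positive TGFB cells and untreated reporter cells (vertical, log2, hCD2-positive minus untreated) against the mean level of the 10 arrays (horizontal, log2 normalised signal) for each of the 14860 genes. Called genes are coloured; the 1436 lower genes extend as far as Gzmb at -5.27, and the 289 higher genes up to Nt5e at 3.59.

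The 3 largest rises among tested genes whose arrays did not overlap were those of Nt5e, Itgae and Ikzf2. This ranking and those below leave out predicted genes, unnamed clones, olfactory and vomeronasal receptors and receptor gene segments. Nt5e encodes CD73, the surface enzyme that makes adenosine from AMP. It read 4.72, 5.75, 6.91, 6.96 and 5.99 in the untreated arrays and 9.71, 9.80, 8.37, 10.07 and 10.33 in the hCD2-positive arrays, a 12-fold difference (3.59 ± 0.36 on the log2 scale, limma adjusted p = 3.36e-06). Itgae encodes the integrin chain CD103, which with the beta-7 chain binds E-cadherin on epithelium. It read 5.75, 6.05, 6.52, 5.48 and 7.95 against 10.04, 10, 8.74, 10.22 and 9.59, and was 10.3-fold higher. Ikzf2, which encodes the transcription factor Helios, read 6.17, 6.64, 6.55, 6.27 and 6.65 against 10.12, 9.61, 8.73, 10.13 and 9.0, 8.35-fold higher. For each of these 3 genes the groups did not overlap, and hCD2-positive replicate 3 was the lowest array of its group.

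Ldlrad4, whose product competes with receptors for SMAD proteins and restrains TGFB signalling, was 6.26-fold higher. Its untreated values were 6.59, 6.37, 6.66, 7.0 and 7.71 and its hCD2-positive values 9.77, 9.50, 8.19, 9.92 and 10.18. Ift80, which encodes a protein of intraflagellar transport, the process that builds cilia, read 7.51, 7.76, 7.87, 7.18 and 7.16 against 10.60, 10.63, 9.37, 9.70 and 10.01, a 5.92-fold difference (limma, adjusted p = 1.41e-06). Ccr6, the receptor for the chemokine CCL20, was near the bottom of the scale in untreated cells, at 3.88, 3.92, 4.00, 4.18 and 4.38. It reached 6.99, 5.72, 5.20, 7.55 and 7.39 in hCD2-positive cells and varied more within that group than the genes above. S1pr1, the sphingosine-1-phosphate receptor that lets lymphocytes leave lymphoid organs, read 8.79, 8.32, 8.79, 8.53 and 9.41 against 10.67, 11.28, 9.82, 11.28 and 12.08. Kit, the receptor for stem cell factor, read 5.64, 5.58, 6.21, 5.61 and 6.61 against 8.58, 8.26, 7.78, 8.38 and 7.98.

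The remaining genes among the 15 that rose most without overlap of the arrays were Stxbp6, a regulator of vesicle fusion (2.31), the sialyltransferase gene St6galnac3 (2.30), Lrig1, a restraint on receptor tyrosine kinases (2.08), the cyclic nucleotide phosphodiesterase gene Pde2a (2.06), the ceramide kinase gene Cerk (2.04), Camk2n1, an inhibitor of calcium/calmodulin-dependent kinase (2.01), and the interleukin-18 receptor chain Il18r1 (1.92), all as log2 differences. Nrp1, a semaphorin receptor often used to mark regulatory cells of thymic origin, was also higher, by 2.04 ± 0.40 (limma, adjusted p = 0.00219), although its arrays overlapped.

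**Figure D2:**
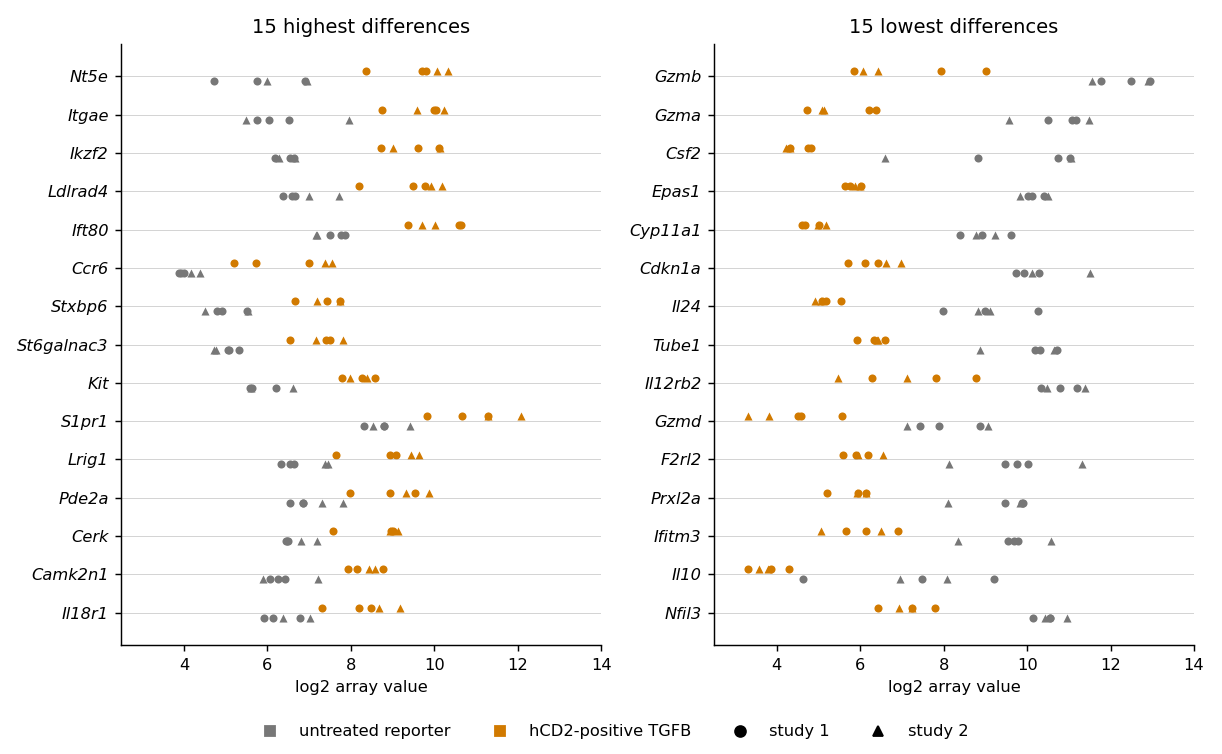
Log2 array value (horizontal) of the 15 genes that rose most and the 15 that fell most without overlap, in each of the 5 untreated and 5 hCD2-positive arrays; each point is 1 array, circles are study 1 and triangles study 2. The colours are apart in every row because the genes were chosen for it. Csf2 and Il10 spread widest in untreated cells, and hCD2-positive replicate 3 was the lowest treated array for Nt5e, Itgae and Ikzf2.

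The 3 largest falls among genes whose arrays did not overlap were those of Gzmb, Gzma and Csf2. Gzmb encodes granzyme B, a protease that cytotoxic lymphocytes deliver to target cells. It read 11.76, 12.49, 12.94, 12.89 and 11.56 in untreated arrays and 7.93, 9.01, 5.84, 6.43 and 6.07 in hCD2-positive arrays, 38.6-fold lower (-5.27 ± 0.57, limma adjusted p = 7.37e-06). Gzma, for granzyme A, read 10.49, 11.16, 11.07, 11.49 and 9.56 against 6.20, 6.37, 4.73, 5.14 and 5.08. Csf2 encodes the growth factor GM-CSF. It spread widely over the untreated arrays, at 11.03, 10.75, 8.83, 11.06 and 6.60, and was uniformly low in hCD2-positive arrays, at 4.74, 4.32, 4.82, 4.23 and 4.32, all under the lower quartile of all probe sets. That no hCD2-positive array of these 3 genes reached the lowest untreated one follows from how they were chosen. Gzma is also one of 6 measured NK cell markers, whose mean level ran from 5.88 to 6.80 over the untreated and from 5.14 to 5.74 over the hCD2-positive arrays. Apart from Gzma and Eomes, the other 4 differed by -0.06 to 0.08 and did not pass, and Eomes (-0.67) lost its call in 11 leave-one-out fits.

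Epas1, which encodes the hypoxia-inducible factor HIF-2alpha, fell with little spread. It read 10.11, 10.41, 10.03, 10.50 and 9.83 against 5.75, 5.63, 6.02, 5.99 and 5.87, with standard deviations of 0.28 and 0.16, and fell by 4.32 on the log2 scale (limma, adjusted p = 5.17e-13). Cyp11a1, the enzyme that starts steroid synthesis from cholesterol, read 8.92, 8.39, 9.62, 8.77 and 9.23 against 5.02, 4.60, 4.68, 5.18 and 5.00. Cdkn1a, the cell cycle inhibitor p21, read 10.28, 9.92, 9.73, 11.51 and 10.11 against 6.42, 6.11, 5.70, 6.98 and 6.63. For each of these 3 genes the gap between the groups was wider than the range within either group. Il10, for the regulatory cytokine interleukin-10, read 7.48, 4.64, 9.21, 8.09 and 6.95 in untreated arrays and 4.30, 3.30, 3.87, 3.78 and 3.57 in hCD2-positive arrays; the groups did not overlap, but untreated replicate 2 came close to the treated values.

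The others of the 15 genes that fell most were Il24, a cytokine of the interleukin-10 family (-3.89), Tube1, for epsilon-tubulin (-3.81), Il12rb2, the signalling chain of the interleukin-12 receptor (-3.74), the granzyme gene Gzmd (-3.72), F2rl2, a protease-activated receptor (-3.71), the peroxiredoxin-like gene Prxl2a (-3.57), the antiviral membrane protein gene Ifitm3 (-3.54) and Nfil3, a leucine zipper transcription factor of helper T cells (-3.40). Granzymes B and D are members of one gene family, and probe sets of close relatives can share signal.

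Of 35 measured ligands, receptors, SMADs and regulators of the TGFB pathway, 7 were higher and 4 lower (median difference 0.01). Over all genes 1.94% were called higher and 9.66% lower, and the share of the list called lower is near the latter. Feedback regulators were among those higher. Smad7, the inhibitory SMAD that a SMAD signal induces, rose by 1.10 ± 0.25 (limma, adjusted p = 0.00656), and the list's largest rise was that of Ldlrad4. Acvr2a, an activin receptor, rose by 1.43. Tgfbr3, the co-receptor betaglycan, fell by 0.85 (not called without a study term, adjusted p = 0.0661), and Itgav, the integrin chain that helps release active TGFB from its latent form, fell by 1.30. Quantile normalisation called 15 members higher and 3 lower. Leaving out untreated replicate 4, hCD2-positive replicate 4 or hCD2-positive replicate 5 left 2 lower.

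Of 26 genes listed as targets of TGFB, 11 were higher and 3 lower (median 0.15). Itgae, Nt5e, Ldlrad4, Ccr6 and Smad7 were among those that rose. Skil, a SMAD corepressor induced by TGFB, was higher by 0.94 (limma, adjusted p = 0.0315), a call that was lost on leaving out any untreated array or any hCD2-positive array but replicate 3, with adjusted p between 0.053 and 0.078. The members that fell most, Cdkn1a and Id2, are in other cells respectively induced and repressed by TGFB. Id2 encodes an inhibitor of E proteins, the helix-loop-helix factors of lymphocyte development, and went from 11.19 ± 0.46 (SD, n = 5) to 8.35 ± 0.63 (SD, n = 5). The number higher dropped to 6 without untreated replicate 4 and to 7 without untreated replicate 1 or hCD2-positive replicate 2, and the number lower became 5 without hCD2-positive replicate 2 or untreated knockout replicate 3.

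The regulatory T cell list was split. Of its 24 measured members, 6 were higher and 9 lower, with a median of -0.60. Beside Nt5e, Itgae, Ikzf2 and Nrp1, which rose, stood genes of activated T cells that fell. Ecm1, an extracellular matrix protein of Th2 cells, fell by 2.77 and Prdm1, which encodes the repressor Blimp-1, by 1.75. Tnfrsf4, the costimulatory receptor OX40, fell by 1.48 (not called without a study term, adjusted p = 0.054), and Entpd1, the ectonucleotidase CD39 that acts ahead of CD73, by 1.55. Il2ra, for CD25, read 11.74, 11.25, 12.08, 12.51 and 12.21 in untreated arrays and 10.73, 10.58, 9.87, 11.49 and 11.62 in hCD2-positive arrays, a fall of 1.10 with overlapping groups that was not called without a study term (adjusted p = 0.0647). Tnfrsf18, for the receptor GITR, and Icos each differed by -0.70 and did not pass the test (limma, adjusted p = 0.119 and 0.227); Tnfrsf18 passed when untreated replicate 5 was left out (-0.93, adjusted p = 0.028). Of 10 genes that make, break down or sense adenosine, Nt5e rose and Entpd1 fell, and a further call, of Ada, is not kept with the replicate number as a block (adjusted p = 0.056) or in 14 of the arrays' leave-one-out fits. Over all genes 1.94% were called higher and 9.66% lower, and quantile normalisation called 3 members of this list higher and 2 lower.

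**Figure D3:**
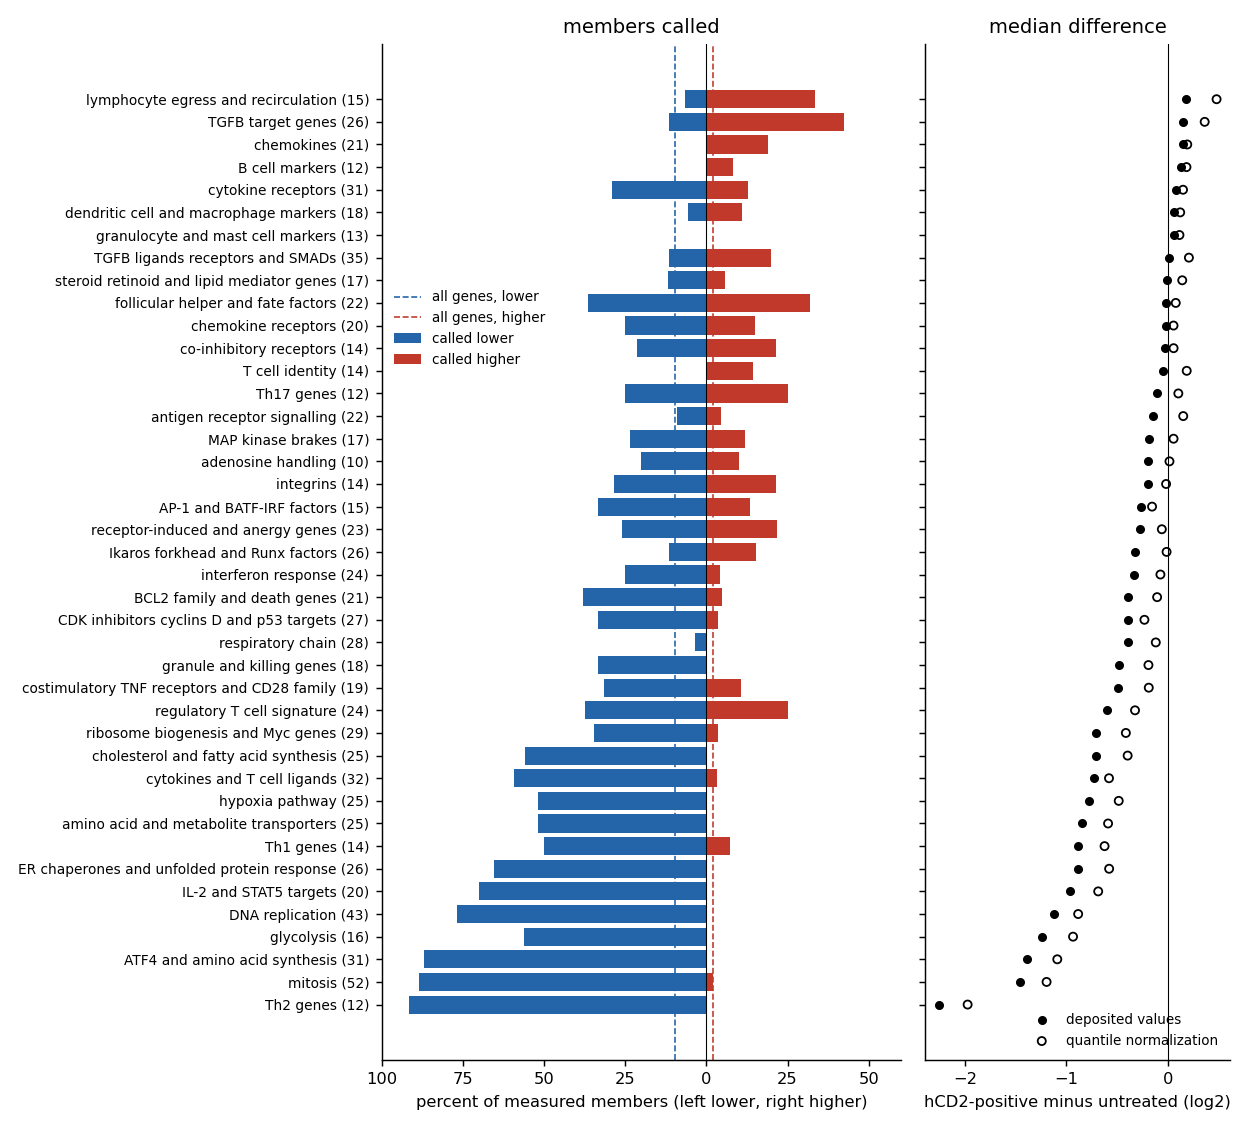
Gene lists with more than 8 measured members: the percentage of members called lower (left) and higher (right) in hCD2-positive cells, and beside it the median log2 difference of the list (hCD2-positive minus untreated) for deposited and quantile-normalised values; dashed lines are the shares over all genes. The Th2, mitosis, ATF4 and DNA replication lists have the largest shares called lower, and TGFB targets and egress genes the largest shares called higher.

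Of 32 measured cytokines and T cell ligands, 19 were lower and 1 higher (median -0.73), with 3 higher under quantile normalisation or centring. The Th2 cytokine genes Il4 and Il13 fell by 2.42 and 3.06, and Lif, for leukaemia inhibitory factor, by 2.30. The mean level of the list lay between 7.04 and 8.12 in the untreated arrays and between 6.09 and 6.63 in the hCD2-positive arrays, without overlap. Among 31 cytokine receptors, 9 were lower and 4 higher, but quantile normalisation called 8 lower and 12 higher, and centring 9 lower and 8 higher. Il12rb1, the other interleukin-12 receptor chain, fell by 2.86, the decoy receptor Il1r2 by 2.16 and the interleukin-4 receptor chain Il4ra by 1.62, while Kit and Il18r1 rose. Leaving out hCD2-positive replicate 3 raised the number of receptors higher to 7, and leaving out untreated replicate 4 reduced the number lower to 5.

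Of 12 Th2 genes, 11 fell (median -2.26), among them Pparg (-2.06), a nuclear receptor of Th2 cells, and Gata3, the master factor of the lineage, which went from 11.12 ± 0.22 (SD, n = 5) to 9.77 ± 0.47 (SD, n = 5). Of 14 Th1 genes, 7 fell and 1 rose (median -0.89). Tbx21, for the Th1 factor T-bet, fell by 1.31 and Havcr2, for the inhibitory receptor TIM-3, by 2.17. Of 12 Th17 genes, 3 rose and 3 fell, against 1.94% and 9.66% over all genes. Batf and Irf4, partner factors that act early in the differentiation of several helper lineages, fell by 2.09 and 1.38, and Ccr6 rose. Irf4 was not called with only the arrays of both groups (adjusted p = 0.056). The list's count of higher genes was 1 without untreated replicate 4. Of 18 granule and killing genes, 6 fell and none rose, although quantile normalisation called 3 higher and 7 lower. Serpinb6b, a protease inhibitor of the serpin family, fell by 1.31.

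Of 21 chemokines, 4 were higher and none lower, against 1.94% and 9.66% over all genes. Ccl9 rose by 1.28 and Xcl1, the ligand of the receptor on cross-presenting dendritic cells, by 1.21 (not called without a study term, adjusted p = 0.127), and only 2 were called without untreated replicate 3 or without hCD2-positive replicate 3. Of 20 chemokine receptors, 3 rose and 5 fell. Ccr7, which guides T cells to lymph nodes, rose by 1.74 and Cxcr5, which guides them to B cell follicles, by 1.26. Ccr4, a receptor of Th2 and skin-homing cells, fell by 1.82 and Cxcr4, the receptor for CXCL12, by 1.60.

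Of 15 genes of lymphocyte egress and recirculation, 5 were higher, Ccr7 and S1pr1 among them, 1, Cxcr4, was lower and 9 did not pass (median 0.17). Klf2, the factor that drives S1pr1 transcription, went from 7.53 ± 0.33 to 8.87 ± 0.47 (SD, n = 5 each) without overlap (limma, adjusted p = 0.00197), and Foxo1, which acts above Klf2, rose by 0.82. Without untreated replicate 5 or hCD2-positive replicate 1 the list held 2 lower genes. Among 14 integrins, 3 rose and 4 fell, against 1.94% and 9.66% over all genes. Beside Itgae, the laminin-binding chain Itga6 rose by 1.19, whereas Itgb3, the partner of Itgav, fell by 1.63 and Itgb5 by 1.15. Itgam rose by 0.40 from a low level of 5.22.

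Of 22 factors and genes of the follicular helper fate, 7 were higher and 8 lower. Tox, a factor of thymic and chronically stimulated T cells, rose by 1.55, and Satb1, a chromatin organiser, fell by 1.21. Of 26 Ikaros, forkhead, Runx and related factors, 4 rose and 3 fell, the latter share being near the 9.66% over all genes; quantile normalisation called 8 higher and 3 lower. Foxp1, a forkhead factor of quiescent T cells, rose by 1.24, beside Ikzf2. With the replicate number as a block, 4 rose and 5 fell, and 5 fell without untreated knockout replicate 3. Of 15 AP-1, BATF and IRF factors, 5 fell and 2 rose. Fosl2 fell by 1.88 and the stress-induced Atf3 by 1.95. The number that rose ran from 0 to 3 when single arrays were left out: 3 without hCD2-positive replicate 3, and 0 without untreated replicate 1, 3 or 4 or hCD2-positive replicate 2.

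Of 22 signalling components close to the antigen receptor, 2 fell and 1 rose, shares near those over all genes (9.66% lower and 1.94% higher). Themis, an adaptor that tunes receptor signals, fell by 1.35, Rasgrp1, which couples the receptor to Ras, by 0.80, and the kinase gene Txk rose by 1.19. Quantile normalisation called 5 higher, Rasgrp1 was not called without a study term (adjusted p = 0.0932), nor Txk with only the arrays of both groups (adjusted p = 0.0532). The kinase gene Zap70 differed by -0.49 and did not pass. Of 23 genes that receptor signals induce or that mark anergy, 5 rose and 6 fell, and quantile normalisation called 8 higher and 7 lower. Nr4a1, an early response gene of receptor signalling, rose by 1.22 and Dgka, a diacylglycerol kinase that dampens it, by 0.85 (not called without a study term, adjusted p = 0.0794), while Rnf128, an anergy-linked ubiquitin ligase, fell by 1.07 and Ndrg1 by 1.56. The number higher was 3 without any one of untreated replicates 1, 3 and 4. Of 17 MAP kinase brakes, 4 fell and 2 rose, against 5 and 5 under quantile normalisation. The phosphatase genes Dusp10 and Dusp6 fell by 2.04 and 1.5, and the Ras GTPase-activating protein genes Rasa3 and Rasa1 rose by 1.59 and 1.00 while Rasa2 fell by 1.08.

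Among 19 costimulatory receptors, 6 fell and 2 rose, but quantile normalisation called 6 lower and 6 higher, and centring 6 lower and 4 higher. Tnfrsf8, for CD30, went from 9.63 ± 0.53 (SD, n = 5) to 6.47 ± 0.17 (SD, n = 5), and Slamf7 fell by 2.81, while its relative Slamf6 rose by 1.63 (not called without a study term, adjusted p = 0.0747). The number higher was 4 without hCD2-positive replicate 3 and 1 without untreated replicate 4 or hCD2-positive replicate 5. Of 14 co-inhibitory receptors and ligands, 3 fell and 3 rose, against 9.66% and 1.94% over all genes. Pdcd1lg2, for PD-L2, fell by 1.60 and the collagen receptor gene Lair1 by 0.74, and Cd5, which restrains antigen receptor signals, rose by 1.40 and Cd96 by 0.84. Cd5 was not called without a study term (adjusted p = 0.101), nor Cd96 with only the arrays of both groups (adjusted p = 0.057). Cd8a, which CD4 cells normally silence, read 6.33 ± 0.36 (SD, n = 5) in untreated and 7.01 ± 0.58 (SD, n = 5) in hCD2-positive cells and did not pass (limma, adjusted p = 0.117), but passed with the replicate number as a block (adjusted p = 0.048). Cd8b1, the partner chain, fell by 0.95. None of 8 GIMAP GTPase genes of T cell survival passed, although the replicate block and each of 5 leave-one-out fits called 1 of them.

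Most listed genes of cell division fell. Of 52 measured mitosis genes, 46 were lower and 1 was higher, with a median of -1.45, and of 43 DNA replication genes 33 were lower and none higher (median -1.12). Kif23 encodes a kinesin of the central spindle needed for cytokinesis. It read 8.49, 8.65, 9.38, 8.38 and 8.58 in untreated arrays and 7.52, 6.32, 6.19, 6.35 and 5.97 in hCD2-positive arrays, 4.68-fold lower without overlap (limma, adjusted p = 9.15e-06). The spindle assembly factor gene Tpx2 fell by 2.53, the checkpoint kinase gene Ttk by 1.73, the contractile ring gene Anln by 1.98 and the condensin gene Smc2 by 2.00. Among replication genes, Orc1 of the origin recognition complex fell by 1.99, the nucleotide pool enzyme gene Dut by 1.31, and the checkpoint adaptor gene Clspn, the maintenance methylation factor gene Uhrf1 and the polymerase subunit gene Pola1 all had a difference of -1.68. The exception in mitosis, named here after its value was seen, was the condensin gene Smc4, which rose by 1.46. The mitosis list averaged 7.43 to 8.82 over the untreated arrays and 6.39 to 7.37 over the hCD2-positive arrays, of which replicate 1 was the highest.

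Promoters of mitosis genes are known for a CHR element, bound by the DREAM and MuvB complexes, beside CCAAT boxes bound by NF-Y. The window of 250 bases before to 50 bases after the start of Kif23 is shown because it holds both. Kif23 was picked by the size of its fall among called members that hold both. It comes from RefSeq on build GRCm38.p6 at chr9:61946750-61947049, minus strand, with the matched CCAAT box (here as ATTGG) and CHR in capitals.
Kif23: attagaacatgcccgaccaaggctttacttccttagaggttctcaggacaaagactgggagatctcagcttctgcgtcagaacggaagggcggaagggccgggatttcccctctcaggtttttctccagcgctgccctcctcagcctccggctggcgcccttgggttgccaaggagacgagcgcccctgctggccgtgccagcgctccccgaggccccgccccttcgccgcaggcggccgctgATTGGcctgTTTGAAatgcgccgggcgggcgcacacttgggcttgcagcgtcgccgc
The search looked on both strands for CCAAT and, for the CHR, for TTTGAA or TTCGAA. Of 44 mitosis genes with a window, 34 (77.3%) held a CHR match, against 18.8% of the 11894 tested genes with a window and 22.1% of the genes called lower. CCAAT was found in 33 of them (75%), against 42.4% of all. Of 37 DNA replication genes with a window, 23 (62.2%) held CCAAT. A match describes letters in this window and is not a measured binding site.

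Of 27 CDK inhibitors, D cyclins and p53 targets, 9 were lower, 1 was higher and 17 did not pass; quantile normalisation called 5 higher, the replicate block and the fit without hCD2-positive replicate 3 each called 3 higher, and most of the other leave-one-out fits none. Beside Cdkn1a, the p53 targets Ccng1 and Zmat3 fell by 1.64 and 1.69, the kinase gene Cdk6 by 2.89 and the stress gene Gadd45g by 2.5. Of 21 BCL2 family and death genes, 8 fell and 1 rose, against 6 and 3 under quantile normalisation. Both survival genes Bcl2 (-1.55) and Bcl2l1 (-0.85) and the death receptor gene Tnfrsf10b (-1.43) fell. The number lower ranged down to 3, without hCD2-positive replicate 3.

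Genes of amino acid synthesis fell, as did Atf4. Of 31 genes of the ATF4 programme, which cells switch on when amino acids are short or the endoplasmic reticulum is stressed, 27 were lower and none was higher (median -1.39). Asns, for asparagine synthetase, read 8.88, 8.44, 9.19, 9.38 and 7.55 in untreated arrays and 5.46, 5.42, 5.40, 6.37 and 5.98 in hCD2-positive arrays, without overlap (-2.96 ± 0.30, limma adjusted p = 3.81e-06). Atf4 itself went from 10.27 ± 0.44 (SD, n = 5) to 8.60 ± 0.65 (SD, n = 5), Atf5 fell by 1.58 and Cars, a cysteinyl-tRNA synthetase, by 1.58. Asns had the largest fall of the list. Its window is shown for the C/EBP-ATF response element through which ATF4 acts, in capitals (RefSeq, GRCm38.p6, chr6:7693160-7693459, minus strand).
Asns: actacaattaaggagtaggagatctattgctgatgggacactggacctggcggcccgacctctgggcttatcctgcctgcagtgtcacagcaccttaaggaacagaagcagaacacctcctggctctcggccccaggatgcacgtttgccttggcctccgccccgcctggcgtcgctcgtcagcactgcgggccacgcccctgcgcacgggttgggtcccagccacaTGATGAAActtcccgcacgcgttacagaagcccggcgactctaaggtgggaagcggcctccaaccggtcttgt
The letters searched were TGATGNAA on both strands. They occurred in 10 of 26 listed ATF4 programme genes with a window (38.5%), against 3.54% of all tested genes with one. Of 25 transporters of amino acids and metabolites, 13 fell and none rose (median -0.84). Slc7a5, the large neutral amino acid transporter of activated T cells, fell by 2.28, Slc43a3 by 1.40 and the glycine transporter gene Slc6a9 by 1.17; quantile normalisation called 2 members of the list higher.

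Of 16 glycolysis genes, 9 fell and none rose (median -1.24). The hexokinase gene Hk2 fell by 2.24, the phosphofructokinase gene Pfkp by 1.61 and the aldolase gene Aldoa by 1.35, and the glucose transporter gene Slc2a3 by 1.88. Of 25 genes of the hypoxia pathway, 13 fell (median -0.77). Hif1a, which encodes HIF-1alpha, went from 11.93 ± 0.06 (SD, n = 5) to 10.92 ± 0.48 (SD, n = 5), and P4ha2, a collagen prolyl hydroxylase, fell by 3.16, the oxidoreductase gene Ero1a by 2.53 and the oxygen sensor gene Egln3 by 2.34. Of 25 genes of cholesterol and fatty acid synthesis, 14 fell (median -0.71), among them Lss (-2.20), Sqle (-1.70) and Scd2 (-1.86). Of 26 endoplasmic reticulum chaperones and genes of the unfolded protein response, 17 fell (median -0.89), with P4hb at -1.49 and Xbp1 at -1.45; without untreated replicate 3 the count was 11. CCAAT was present in the windows of 17 of 19 cholesterol genes (89.5%) and 17 of 22 endoplasmic reticulum genes (77.3%).

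Of 29 genes of ribosome synthesis and the Myc network, 10 fell and 1 rose (median -0.71), and leaving out single arrays gave between 4 and 20 lower. Myc fell by 0.93 ± 0.23 (limma, adjusted p = 0.0133), with overlapping arrays, and the nucleolin gene Ncl by 0.75. Myc was not called without a study term (adjusted p = 0.0608) or without the reporter arrays of narrow range (-0.74, adjusted p = 0.0511), nor Ncl with only the arrays of both groups (adjusted p = 0.0517). Mxd1, which competes with Myc for a shared partner, was the gene that rose, by 1.12 without overlap. Of 28 respiratory chain genes only Cox5a passed, at -0.94, and it did not without untreated replicate 4 (-0.87, adjusted p = 0.052). The median of the list was -0.40 as deposited but -0.12 under quantile normalisation. The list averaged 7.12 in hCD2-positive replicate 3, the array of narrow range, below the lowest untreated array at 8.17. The other hCD2-positive arrays lay within the untreated range. Of 24 interferon response genes 6 fell and 1 rose, against 9.66% and 1.94% over all genes. The median of this list was -0.33 as deposited and -0.08 under quantile normalisation, which called 5 lower and 1 higher. Mx1 fell by 2.41, from a level of 6.14 ± 1.15 (SD, n = 5), and Isg20 by 1.48, while Samhd1, an enzyme that lowers the nucleotide pool, rose by 1.22. Of 17 steroid, retinoid and lipid mediator genes, Cyp11a1 stood far from the rest, and the prostaglandin D synthase gene Hpgds rose by 1.39.

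**Figure D4:**
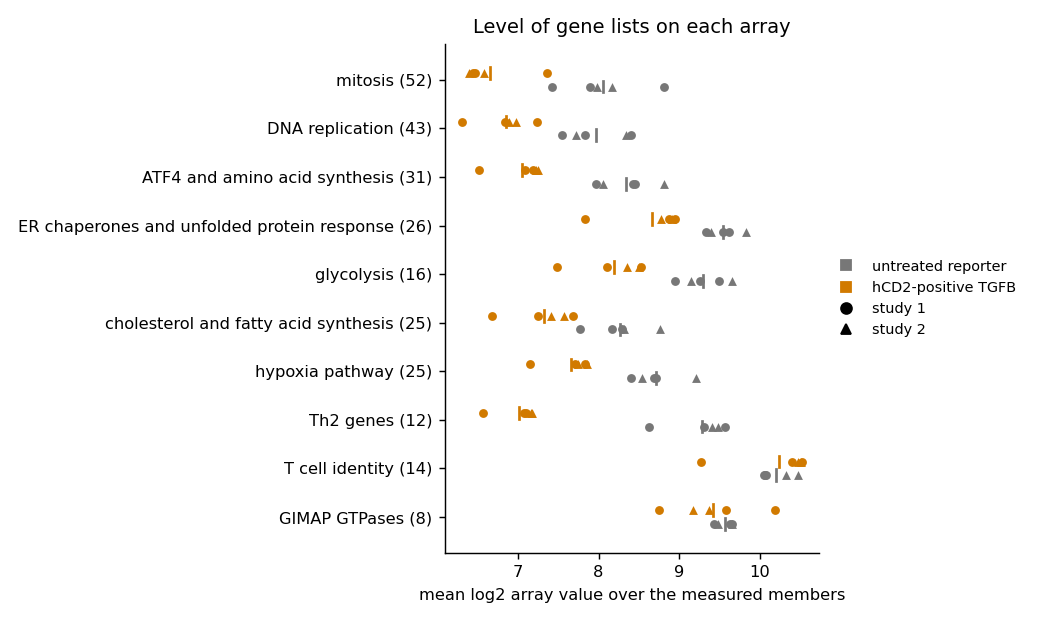
Mean log2 array value (horizontal) over the measured members of 10 gene lists in each of the 5 untreated and 5 hCD2-positive arrays; each point is 1 array, circles are study 1 and triangles study 2, and the vertical tick is the mean of its group. The Th2, ATF4 and mitosis lists separate the groups, and the T cell identity and GIMAP lists overlap.

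Most listed targets of interleukin-2 and STAT5 fell. Of 20 genes induced through STAT5, 14 fell and none rose (median -0.97), including Il2ra, Lif, Tnfrsf8, Bcl2 and Xbp1. Socs2, a feedback inhibitor of cytokine signals, read 11.15 ± 0.56 (SD, n = 5) and 10.55 ± 0.27 (SD, n = 5) and did not pass. Cish, another STAT5-induced feedback inhibitor named here after its value was seen, fell by 1.34 (limma, adjusted p = 0.000811). Cish was picked by the size of its fall among called members of the list whose window holds a STAT motif. Its window carries 2 adjacent matches, in capitals (RefSeq, GRCm38.p6, chr9:107296409-107296708, plus strand).
Cish: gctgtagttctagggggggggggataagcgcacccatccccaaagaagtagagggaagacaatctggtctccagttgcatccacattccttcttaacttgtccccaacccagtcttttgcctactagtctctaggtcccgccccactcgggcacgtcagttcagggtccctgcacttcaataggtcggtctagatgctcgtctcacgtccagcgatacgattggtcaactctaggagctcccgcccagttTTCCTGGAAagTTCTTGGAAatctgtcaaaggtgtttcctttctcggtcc
The letters searched were TTCNNNGAA on both strands. They were found in 4 of 17 listed genes with a window (23.5%), against 8.65% of all tested genes with one. Over the lists the share ran from 0%, as in 9 integrins with a window, to 50% of 8 GIMAP genes. It was 38.5% of 13 Th1 genes and 8.37% of genes called lower, so a raised share is not particular to the STAT5 list.

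The series allows 2 further readings of these genes, in the TGFB-treated cells that had not switched on the reporter and in cells without Foxp3. The hCD2-negative comparison shares the untreated arrays with the one above, so its values are only set beside it. There, 2811 genes (18.9%) were called, 304 (2.05%) higher and 2507 (16.9%) lower. In knockout cells, with 3 arrays a group and array medians of 6.83 to 7.08 against 6.05 to 6.48 for the reporter arrays, 408 genes (2.75%) were called between TGFB and untreated, 133 (0.895%) higher and 275 (1.85%) lower. Nt5e differed from untreated cells by 3.59 with and 3.19 without the reporter, and by 3.93 in the knockout. Ikzf2 differed by 3.06, 3.04 and 3.26, Itgae by 3.37, 3.85 and 4.57, and Epas1 by -4.32, -4.42 and -4.57 in the same order. Csf2 differed by -5.17, -5.06 and -5.50, with means of 4.49 and 4.59 in the treated reporter groups, under the lower quartile of their arrays. For Gzma the differences were -5.25, -2.17 and -1.23, and for Gzmb -5.27, -4.94 and -2.47. Among lists, mitosis had a median of -1.45, -2.09 and -0.56, the ATF4 programme of -1.39, -1.59 and -1.13, Th2 genes of -2.26, -2.63 and -2.68, glycolysis of -1.24, -1.36 and -0.27 and STAT5 targets of -0.97, -1.92 and -1.0. The regulatory T cell list had a median of -0.60, -1.62 and -1.23. The median over all genes, -0.07, is given for the first comparison only. In hCD2-negative replicates 1, 3 and 4 the interquartile range was 2.33, 2.23 and 2.47, narrower than in any untreated reporter array. The part of this in the list medians was not tested.

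The test of hCD2-positive against hCD2-negative cells, which needs no untreated array, called 23 genes (0.155%), 19 (0.128%) higher and 4 (0.0269%) lower in the hCD2-positive cells, and 620 passed an unadjusted p under 0.05. Leaving out hCD2-positive replicate 3 gave 88 genes and leaving out hCD2-positive replicate 1 gave 15. Of the 24 measured members of the regulatory T cell list, 3 were called higher and none lower, with a median difference of 0.82. The Foxp3 and Flicr probe set was higher by 3.95 (limma, adjusted p = 3.48e-07). Stxbp6 was higher by 2.26, and its difference from untreated cells was 2.31 in hCD2-positive and 0.05 in hCD2-negative cells. Socs2 was higher by 2.64, Il2ra by 1.44 (limma, adjusted p = 0.0027, 95% interval 1.03 to 1.86), and Ccr4 by 2.12. These 3 genes were lower than in untreated cells in both treated groups, by 0.60, 1.10 and 1.82 in hCD2-positive and by 3.24, 2.54 and 3.94 in hCD2-negative cells, although the first of these 6 differences did not pass. Ramp1, a partner of the calcitonin-like receptor, was higher by 1.85 on the brighter of its probe sets and by 0.38 on the dimmest, where it was not called. Cybb, the NADPH oxidase subunit, was higher by 1.31, Tlr1, a bacterial lipopeptide receptor, by 1.79, Fsd1l by 1.5 and Mxd1 by 1.18. Of the 10 genes with the smallest p in this test, Il2ra and Ramp1 were not called without a study term (adjusted p = 0.303 and 0.43), and Ramp1, Tlr1, Fsd1l and Socs2 were not called without the reporter arrays of narrow range (adjusted p = 0.0839, 0.0528, 0.0893 and 0.055). With only the arrays of both treated groups in the fit, Kit, Stxbp6 and Socs2 were the ones of these 10 still called. Kit was lower by 2.16, Gzma by 3.08 and Cd8a by 1.76. For Ikzf2 the difference was 0.02 with a 95% interval of -0.55 to 0.59.

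**Figure D5:**
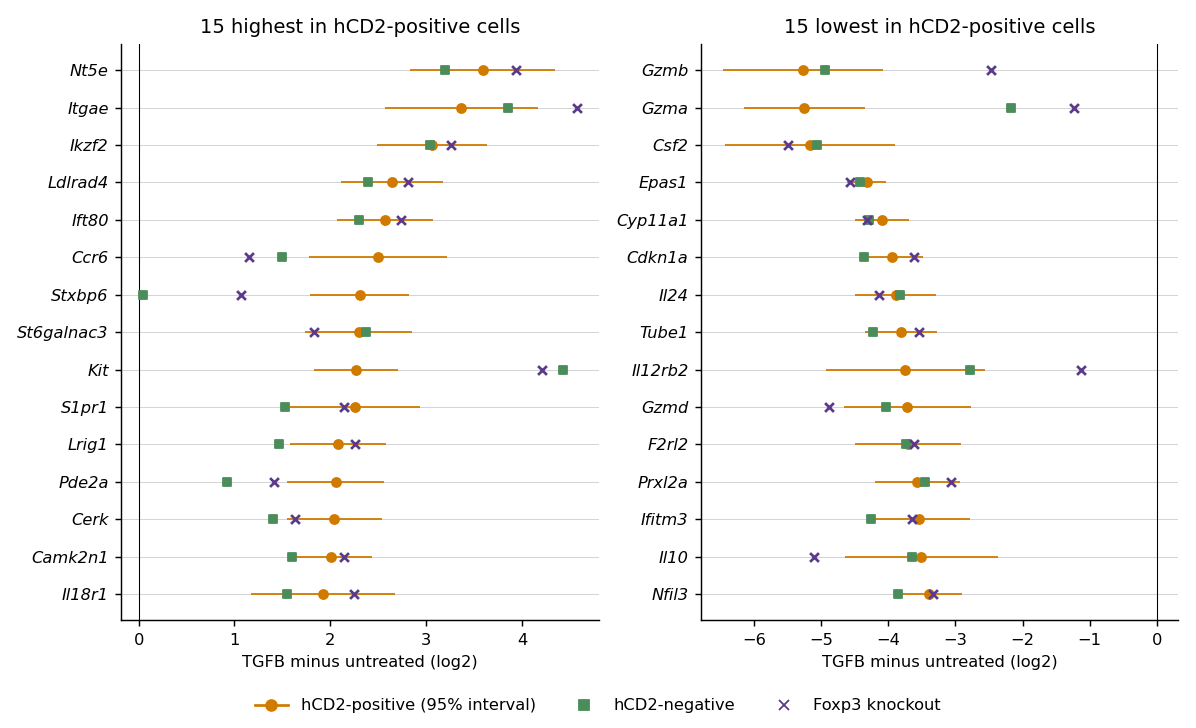
Log2 difference between TGFB-treated and untreated cells (horizontal) for the 15 genes that rose most and the 15 that fell most, in the hCD2-positive, hCD2-negative and Foxp3-knockout settings; the line is the 95% interval in hCD2-positive cells, and the first 2 comparisons share their untreated arrays. The 3 symbols lie close for Ikzf2 and Epas1, while Stxbp6, Kit and Gzma have an hCD2-positive value apart from the hCD2-negative one.

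A direct test of whether the hCD2-positive response differed from the knockout response called none of 14860 genes (0%; limma), and 375 passed an unadjusted p under 0.05. Differences of -4.02 for Gzma, -2.75 for Xcl1 and -1.94 for Kit each had an adjusted p of 0.113. For Gzma the 95% interval ran from -5.49 to -2.55. For Nt5e the difference was -0.34 with an interval of -1.58 to 0.89, and for Epas1 0.25 with an interval of -0.22 to 0.72, which do not show that the responses were alike. Without hCD2-positive replicate 3 the test called 1 gene. All knockout arrays belong to study 2 and lie on a different level, so the knockout and its array set cannot be told apart.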

How the data were processed

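RNA from 21 samples was hybridised to Affymetrix exon arrays, per the labels' protocols. The deposited values are log2 signals that the authors made with Affymetrix Expression Console 1.2 and RMA on build mm8, as the submitters' processing notes say. Of 23332 transcript clusters, 14996 carried 1 gene symbol in the platform annotation, 1019 several and 7317 none; where a gene had several clusters (135 genes) the one with the highest mean was kept, which left 14860 genes. The Foxp3 cluster carries 2 symbols and was tested among all clusters. Arrays give no read depth; the number of arrays limits the precision.

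Groups came from the labels. All 21 arrays entered 1 limma 3.58.1 fit (R 4.3.3) with 5 group means and study, and p-values were adjusted over all genes (Benjamini-Hochberg, called under 0.05). The fit was tested on simulated data. Text genes are the 15 highest and 15 lowest called genes whose arrays do not overlap, a fixed panel, from each list the 5 genes of smallest p (all, in lists of up to 8) and the 10 genes with the smallest p against hCD2-negative cells. The highest and lowest were ranked without predicted genes, unnamed clones, olfactory and vomeronasal receptors and receptor gene segments. The members of the comparison and the gene lists were chosen with earlier results of these data known, and lists are described by counts and medians. Deviations from the group means of same-numbered untreated and hCD2-positive arrays correlated at 0.16, 0.19, 0.15, 0.51 and 0.39, so a fit with the replicate number as a block was run beside the main fit. From group and study means the correlations lay between -0.11 and 0.00, which shows no pairing beyond the shared study. The labels name no pairing, and the main fit has none. Of the probe sets that carry several symbols, only that of Foxp3 is reported by name.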

Additional observations from a re-analysis of the deposited data

Results flagged for a closer look

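Single arrays stood far from the other 4 of their group in 29 of 318 groups of 5 values examined, where chance gives about 1 in 20. Many were low values of hCD2-positive replicate 3, the array with the narrow range. There Cd4 read 9.27 against 10.34 to 10.66 in the other hCD2-positive arrays, Zap70 7.61, Icos 7.01, Cd96 9.73 and Cd8b1 7.98, each the lowest of its group. The same array was lowest for Il4ra (8.51), Il12rb1 (6.29), Tlr1 (8.03), Itgav (7.44), Ecm1 (7.13), Cerk (7.58), Prxl2a (5.21), Slc2a3 (7.68), Egln3 (6.84), P4hb (7.97) and Atf4 (7.45 against 8.82 to 8.99). Without this array the higher calls numbered 386.

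Other single values stood apart in other arrays. Untreated replicate 5 was low for Tube1 (8.87), Prxl2a (8.11) and Bcl2l1 (7.64) and high for Slamf7 (9.63). Untreated replicate 4 was high for Cox5a (10.56), Il12rb1 (10.65) and Itgb5 (8.23), and untreated replicates 1, 2 and 3 stood apart for P4ha2 (9.12), P4hb (9.91) and Kif23 (9.38), replicate 3 also being high for Bard1 (7.90). Among hCD2-positive arrays, replicate 1 was high for Kif23 (7.52) and replicate 2 low for Itgb5 (5.85).

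The responses of hCD2-positive and hCD2-negative cells differed, by the direct test (limma, adjusted over all genes), for 14 genes named in the text. The difference was positive for Socs2 (2.64), Stxbp6 (2.26), Ccr4 (2.12), Ramp1 (1.85), Tlr1 (1.79), Fsd1l (1.5), Il2ra (1.44), Cybb (1.31), Cish (1.23), Mxd1 (1.18) and Ccdc22 (0.75), and negative for Gzma (-3.08), Kit (-2.16) and Cd8a (-1.76).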

How the results depend on the processing

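The Foxp3 and Flicr difference was called under every alternative that was run, between 3.78 in study 1 alone and 5.24 in study 2 alone, and from 4.21 to 4.66 when single arrays were left out. The counts of called genes moved more. Without a study term 182 genes were higher. With only the arrays of the groups compared, 1127 genes were called, 152 of them higher. Quantile normalisation gave 1090 higher, centring 536 and array weights 619. Requiring evidence of a 2-fold change left 84 genes, 14 higher and 70 lower. Within single studies, with fewer arrays, the counts were 279 in study 1, of which 29 were higher and 250 lower, and 208 in study 2, of which 42 were higher and 166 lower; leaving out the reporter arrays of narrow range gave 475 higher. Leaving out 1 array gave 1218 to 2065 calls, 202 to 386 higher and 1013 to 1740 lower.

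The 23 genes that differed between hCD2-positive and hCD2-negative cells became 11 without a study term, 4 with only the compared arrays, 14 with the reporter arrays, 130 under quantile normalisation, 56 after centring, 3489 with array weights, 0 under the 2-fold minimum, 0 in study 1, 0 in study 2 and 9 without the arrays of narrow range, and 15 to 88 when 1 array was left out. The difference from the knockout response was called for 1 gene with only the compared arrays, 10 under quantile normalisation, 3 after centring, 68 with array weights and 1 without the narrow arrays, and for 0 to 1 when 1 array was left out. The cause of these shifts was not tested. With the replicate number as a block, 1982 genes were called (347 higher, 1635 lower), 1653 of them shared, and among the text genes the block changed the calls of Ada and Cd8a alone. Of 151 called genes named in the text, none reversed under any alternative, and all 151 kept the call under quantile normalisation. The call was lost for 13 without a study term, 8 with only the compared arrays, 4 without the arrays of narrow range, 101 under the 2-fold minimum, 66 in study 1 and 79 in study 2, and 1 to 5 were lost in most leave-one-out fits. With the studies taken singly set aside, 50 were called in every setting that tested them. Of these, Ccr6, Cybb, Il10 and Orc1 were not tested in the fit that left out the dimmest genes.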

Other observations

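The 3 genes on each side of Foxp3, Ift80, Gzmb, Nt5e and Ikzf2, in the order of the RefSeq gene table, were examined, and those named were chosen after their values were seen. Ccdc22, the next gene to Foxp3, was higher in hCD2-positive than in untreated cells by 0.60 ± 0.12 (SE; limma, adjusted p = 0.00279). It differed by -0.16 from untreated cells in hCD2-negative cells and by -0.05 in knockout cells, and the direct difference between hCD2-positive and hCD2-negative cells was 0.75 (adjusted p = 0.00743). The gene on the other side of Foxp3 differed by -0.13, and the next genes beyond Ccdc22 by 0.21 and 0.04, without passing the test. Clcn5, 3 genes away on the other side, was lower by 1.23 in hCD2-positive, by 1.55 in hCD2-negative and by 1.19 in knockout cells.

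Ift80, Smc4 and Trim59 lie next to each other. They rose by 2.57, 1.46 and 0.97 in hCD2-positive cells (limma, adjusted p = 1.41e-06, 0.000402 and 0.00797) and differed by 2.74, 1.58 and 1.89 in knockout cells given TGFB. In hCD2-negative cells the differences were 2.30, 1.27 and 0.42, the last not passing the test (adjusted p = 0.197). The gene beyond Trim59 differed by -0.11 and Il12a, on the far side of Ift80, by 0.27, and neither passed the test. Smc4 was higher in the cells in which 46 of 52 mitosis genes were lower. Cenpj, 3 genes from Gzmb, was lower by 1.24 and Bard1, 3 genes from Ikzf2, by 0.89 (limma, adjusted p = 0.0124 and 0.0144); Bard1 was not called without the reporter arrays of narrow range, and no measured neighbour of Nt5e passed.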
